A study of Mus musculus with 2 samples.

Results

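The genes described here are 39 mitosis and spindle genes, followed from the vehicle to the CHIR99021 condition in mDE6, a cell line derived from mouse odontogenic epithelium. They were found as the array probes whose deposited gene name equals a listed member, which gave 76 of the 56605 distinct probes, and all 39 genes were among the 18837 gene names with a probe above background. They fall into 8 groups by role. Mki67 and Top2a are read as signs of proliferation. Foxm1, Plk1, Aurka, Aurkb, Cdc25b and Cdc25c are the transcription factor, kinases and phosphatases of mitotic entry. Bub1, Bub1b, Bub3, Mad2l1 and Ttk form the spindle checkpoint. Cenpa, Cenpe, Cenpf, Ndc80, Nuf2, Spc24 and Spc25 belong to the centromere and kinetochore. Birc5 and Cdca8 are partners of Aurkb in the chromosomal passenger complex. Kif11, Kif2c, Hmmr, Nusap1 and Tpx2 are spindle motors and microtubule binders. Anln, Ect2, Kif20a, Kif23, Prc1 and Racgap1 act at the central spindle and in cytokinesis. Anapc2, Cdc20, Fzr1, Ube2c, Cdca3 and Pttg1 belong to the anaphase-promoting complex (APC/C), its activators and its substrates.

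The vehicle cells received DMSO and the treated cells CHIR99021, a GSK-3 inhibitor that activates the β-catenin pathway, and both were taken at 6 h. The label gives the dose as 5 mM, whereas the study's methods give 5 μM and call the control untreated, and the methods name a human array where the file header names a mouse design with build mm9. Each condition has 1 array, both on the same slide, so that slide position and condition cannot be told apart, no difference has a replicate check, and no test was made. Signal is the background-subtracted spot intensity divided by the 75th percentile of its array (486.7 for vehicle, 469.17 for CHIR99021), and the ratio is CHIR99021 over vehicle. Of all spots, 49.8% and 48.3% were well above background on the vehicle and CHIR99021 arrays. Among 1277 probes that differed by over 4-fold, 92.9% lay in the later rows (past row 192), which hold 52.1% of the tested probes. The label was set against marker genes: 4 of 10 epithelial markers were well above background on the vehicle array (Krt18, Krt14, Cldn7 and Trp63, but not Cdh1, Epcam or Krt8), with all 10 mesenchyme markers, 1 of 4 endothelial markers and all 4 leukocyte markers. The part of other cell types in the results was not tested.

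Before a cell divides it builds a microtubule spindle, ties each chromosome to it through the kinetochore, and holds anaphase back through the spindle checkpoint until every chromosome is attached. The APC/C with its activator Cdc20 then marks securin (Pttg1) and cyclin B for destruction, and the central spindle places the cleavage furrow. Transcripts of many of these proteins rise together before mitosis and are low in resting cells, and much of this timing is known to run through a cell cycle homology region (CHR) close to the start of transcription together with CCAAT boxes upstream of it. In a bulk sample, fewer cells near mitosis and less RNA per cell cannot be told apart.

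The promoters of the members were searched for these letters. RefSeq windows of build GRCm38.p6, from 250 bases before the annotated start to 50 after, matched 33 of the 39 genes in 36 windows, since Bub3, Ect2 and Prc1 have 2 each. Spc24, Kif20a, Tpx2, Cdc25c, Aurkb and Foxm1 had no entry. Both strands were searched for the CHR letters TTTGAA or TTCGAA (the latter is its own reverse complement), for CCAAT, and for the E2F letters TTTGGCGC, TTTCCCGC or TTTCGCGC. A match is a description of letters and not a site. The 250 upstream bases of 5 members are given, 4 that hold both kinds of letters and Pttg1 that holds neither. Capitals mark the CHR and CCAAT letters on either strand, so that ATTGG and TTCAAA are matches too.
Cdc20, chr4:118437344-118437593, minus strand: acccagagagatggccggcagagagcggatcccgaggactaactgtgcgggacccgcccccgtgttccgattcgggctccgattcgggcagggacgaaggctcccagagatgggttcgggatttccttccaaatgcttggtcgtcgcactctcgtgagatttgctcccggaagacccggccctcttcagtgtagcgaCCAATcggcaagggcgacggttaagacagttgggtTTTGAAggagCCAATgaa
Ube2c, chr2:164769679-164769928, plus strand: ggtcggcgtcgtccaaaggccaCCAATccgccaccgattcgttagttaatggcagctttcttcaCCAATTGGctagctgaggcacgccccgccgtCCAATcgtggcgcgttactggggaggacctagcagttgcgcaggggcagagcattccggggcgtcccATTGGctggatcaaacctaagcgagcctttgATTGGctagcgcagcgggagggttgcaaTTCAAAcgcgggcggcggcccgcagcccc
Mki67, chr7:135716380-135716629, minus strand: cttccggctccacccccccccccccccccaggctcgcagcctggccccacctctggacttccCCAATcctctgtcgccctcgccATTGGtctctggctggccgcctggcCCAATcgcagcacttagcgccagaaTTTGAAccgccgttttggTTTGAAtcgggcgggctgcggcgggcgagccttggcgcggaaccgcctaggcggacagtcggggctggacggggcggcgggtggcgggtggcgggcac
Top2a, chr11:99024190-99024439, minus strand: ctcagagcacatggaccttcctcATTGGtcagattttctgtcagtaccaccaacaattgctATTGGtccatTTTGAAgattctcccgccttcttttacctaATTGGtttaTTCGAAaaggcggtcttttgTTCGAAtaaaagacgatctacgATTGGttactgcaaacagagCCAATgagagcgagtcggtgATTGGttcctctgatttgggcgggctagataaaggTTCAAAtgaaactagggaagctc
Pttg1, chr11:43425982-43426231, minus strand: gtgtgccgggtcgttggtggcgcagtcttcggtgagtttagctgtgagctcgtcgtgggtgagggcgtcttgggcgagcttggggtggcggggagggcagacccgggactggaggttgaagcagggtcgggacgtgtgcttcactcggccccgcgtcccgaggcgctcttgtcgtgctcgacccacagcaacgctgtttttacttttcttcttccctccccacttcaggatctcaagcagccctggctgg

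CHR letters were found in 28 of the 36 member windows (77.8%) and in 19.2% of all 32851 promoter windows. CCAAT stood in 27 (75%) against 37.4% of all windows, and at least 2 matches to CCAAT in 17 (47.2%) against 11.7%. Both kinds of letters were found together in 25 member windows (69.4%) and in 7.52% of all windows. By gene, 22 of 33 members (66.7%) held both, against 8.61% of 27025 genes and 6.84% of the genes measured on both arrays. The E2F letters were in 0 of 36 member windows and in 1.84% of all windows, which says only that these exact letters are not there. The order was also shared. In all 25 member windows with both, the CHR letters nearest the end of the window stood downstream of a CCAAT match, at a median distance of 30 bases (range 4 to 148), whereas this order was found in 52.6% of the 2472 windows of all genes that hold both. In 25 of 28 member windows with CHR letters (89.3%), a match began no further than 50 bases upstream of the start, against 27.6% of all windows with CHR letters. Cdca8 was the member in which the letters of a CHR and a CCAAT match shared a base. Cdc20, Mki67, Ube2c and Top2a, whose sequences are printed above, had ratios of 0.807, 0.856, 0.94 and 0.991. Top2a has 4 CHR and 6 CCAAT matches in its window, Ube2c 6 CCAAT matches and Mki67 2 CHR and 3 CCAAT matches. Nusap1, Pttg1 and Anapc2, which had the lowest ratios of the 39, are among the 6 members that hold neither kind of letters, with Birc5, Mad2l1 and Nuf2. Members with CHR letters had a median log2 ratio of -0.21 (25 genes) and those without of -0.04 (8 genes). Members with CCAAT had a median log2 ratio of -0.16 (24 genes) and those without of -0.43 (9 genes).

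**Figure D1:**
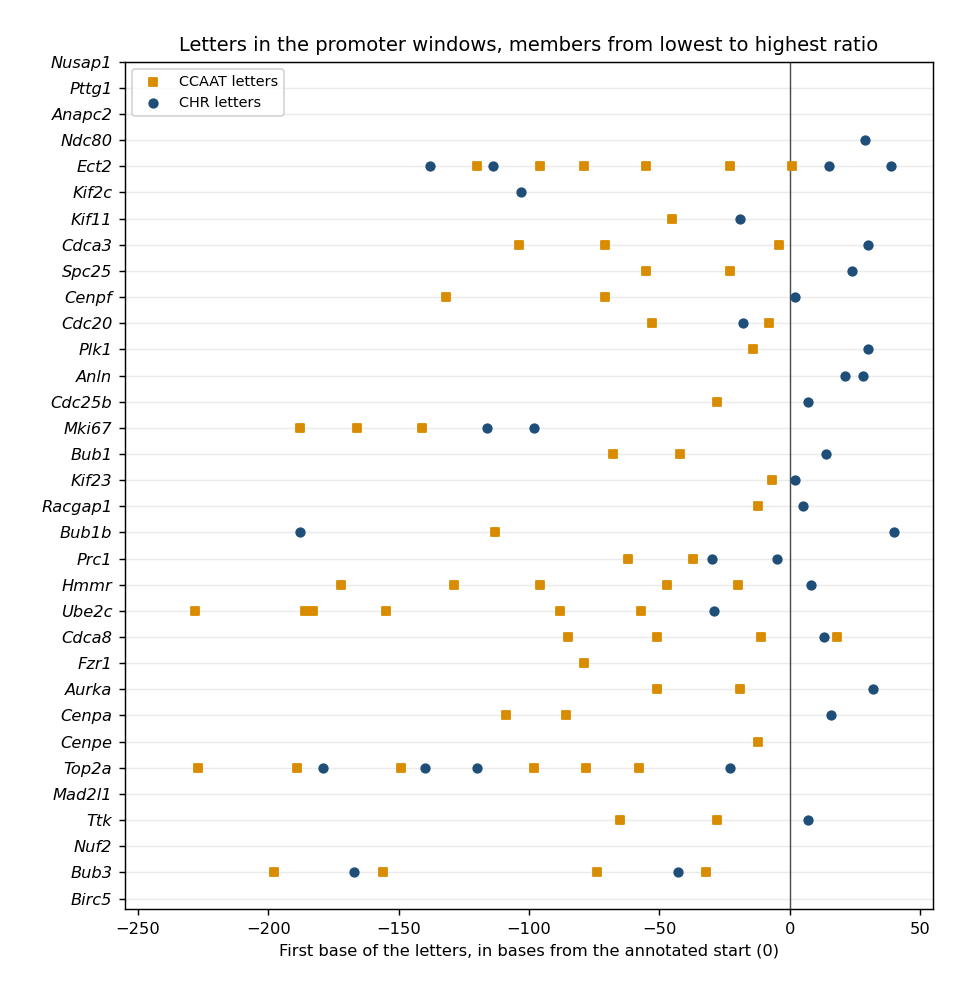
Position of CHR letters (circles) and CCAAT letters (squares) in the RefSeq promoter windows of 33 members, from the lowest ratio (top) to the highest; the horizontal axis gives bases from the annotated start (0), and windows of a gene with 2 starts share a row. CHR matches lie mostly within 50 bases of the start with CCAAT matches to their left, and 6 rows hold neither.

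After 6 h of CHIR99021 most members had a slightly lower signal than under vehicle, and few were much lower. At the probe with the highest mean signal, 34 of 39 members had a ratio below 1 (87.2%), whereas 44.9% of the 16886 genes measured on both arrays did. The members were chosen with earlier results of these data known, so this contrast is not independent of the choice. The median ratio of the members was 0.889, a log2 ratio of -0.17 with quartiles of -0.32 and -0.07. The same median over all genes was 0.03 on the log2 scale with quartiles of -0.18 and 0.22, and it was 0.03 over the 11573 genes within the members' signal range. In all, 36 of 39 members lay under the median of all genes. There were 22 members under a ratio of 0.9, 15 between 0.9 and 1.1, and 2 over 1.1. Median scaling and no scaling move every gene by the same constant, with medians of all genes of 0.06 and -0.02 and 31 and 36 of 39 members below 1, and leave the members' median 0.20 below that of all genes in each case. With the mean over all probes of a gene in place of the brightest, 31 of 39 members were below 1, and Kif23, Cdca8 and Top2a were above it. In the earlier rows of the arrays the median log2 ratio of the members was -0.16 (21 genes) and in the later rows -0.19 (18 genes), with 0.03 and 0.04 for all genes.

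**Figure D2:**
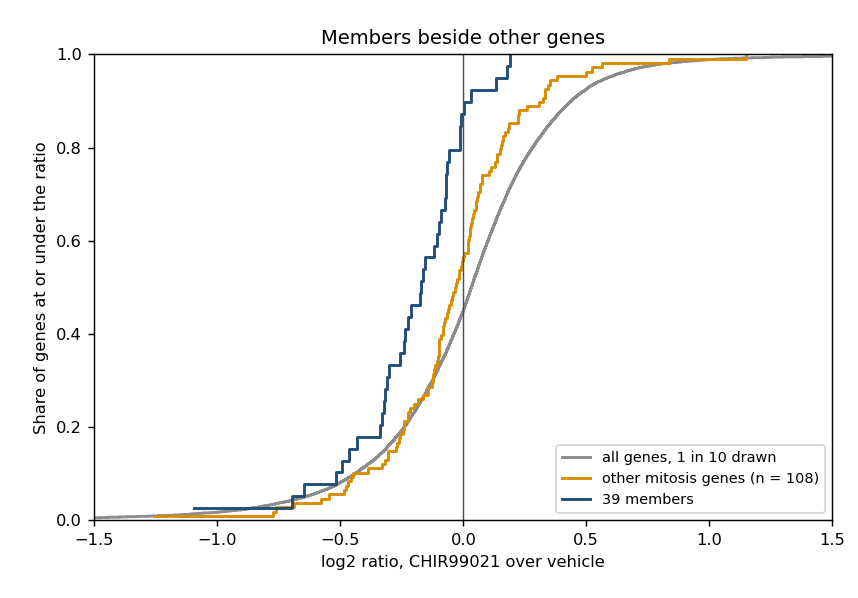
Cumulative share of genes at or under each log2 ratio of CHIR99021 over vehicle, for the 39 members, 108 other mitosis genes and all genes measured on both arrays, of which 1 in 10 by order of ratio is drawn. Apart from the lowest ratios, the line of the members runs to the left of the others and crosses 0 with 34 of 39 genes below it; ratios outside -1.5 to 1.5 are not drawn.

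A gene was called by criteria on ratio and Z-score together. Lower probes were those at or under 0.66 whose Z-score did not exceed -2, and higher probes those at or over 1.5 whose Z-score reached 2. The Z-score sets a log2 ratio against the 500 probes nearest in mean signal. Of 67 tested member probes, 3 were lower and 0 higher, against 2.72% and 2.35% of the 28066 probes tested. By gene this was 3 of 39 lower and 0 higher, where 3.22% and 2.63% of all genes were called. By the ratio alone, 5 member probes were at or under 0.66 and 2 at or over 1.5, against 9.68% and 8.24% of all probes. These are 7.46% and 2.99% of the member probes, and the lower calls by both criteria are 4.48% of them. By gene, 3 of 39 members (7.69%) were at or under 0.66, against 5.11% of the 11573 genes within the members' signal range. The share of low ratios thus lay under or over the background by the measure and the genes it was set against, and 3 genes are too few to read more from it. The 3 lower members were Nusap1, Pttg1 and Anapc2. Nusap1 (row 368) and Pttg1 (row 200) lie in the later rows, so that in the earlier rows alone the count was 1, and it was 0 where the Z-score was taken from 1 mean and SD over all probes. Among 63 member probes measured on both arrays, 50 were below 1 and 13 above, where 44.6% of all such probes were below 1. The share of members below 1 was above that of all genes. With 1 array a condition this share has no replicate check, and the members were chosen with earlier results known.

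The precision of a spot was taken from probes printed several times on each array. The SD of their log2 ratio was 0.03 at the median of 278 such probes, most of them bright. It was 0.05 for signals of 1000 to 3000 intensity units (5 probes), 0.14 for 300 to 1000 (2 probes), 0.15 for 100 to 300 (2 probes) and 0.21 under 100 (2 probes). By the SD of its own signal range, 21 members lay more than 2 SDs below a ratio of 1, 2 lay more than 2 SDs above it (Bub3 and Birc5), and 16 lay closer. The same counts were not made over all genes. The log2 quartiles of all genes, -0.18 and 0.22, lie beyond 2 such SDs for bright spots. The counts can therefore not be read as particular to the members. The SD between spots covers differences from spot to spot within the pair of arrays. It does not cover array-wide differences in labelling, hybridisation or scanning, nor the spread between cultures.

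**Figure D3:**
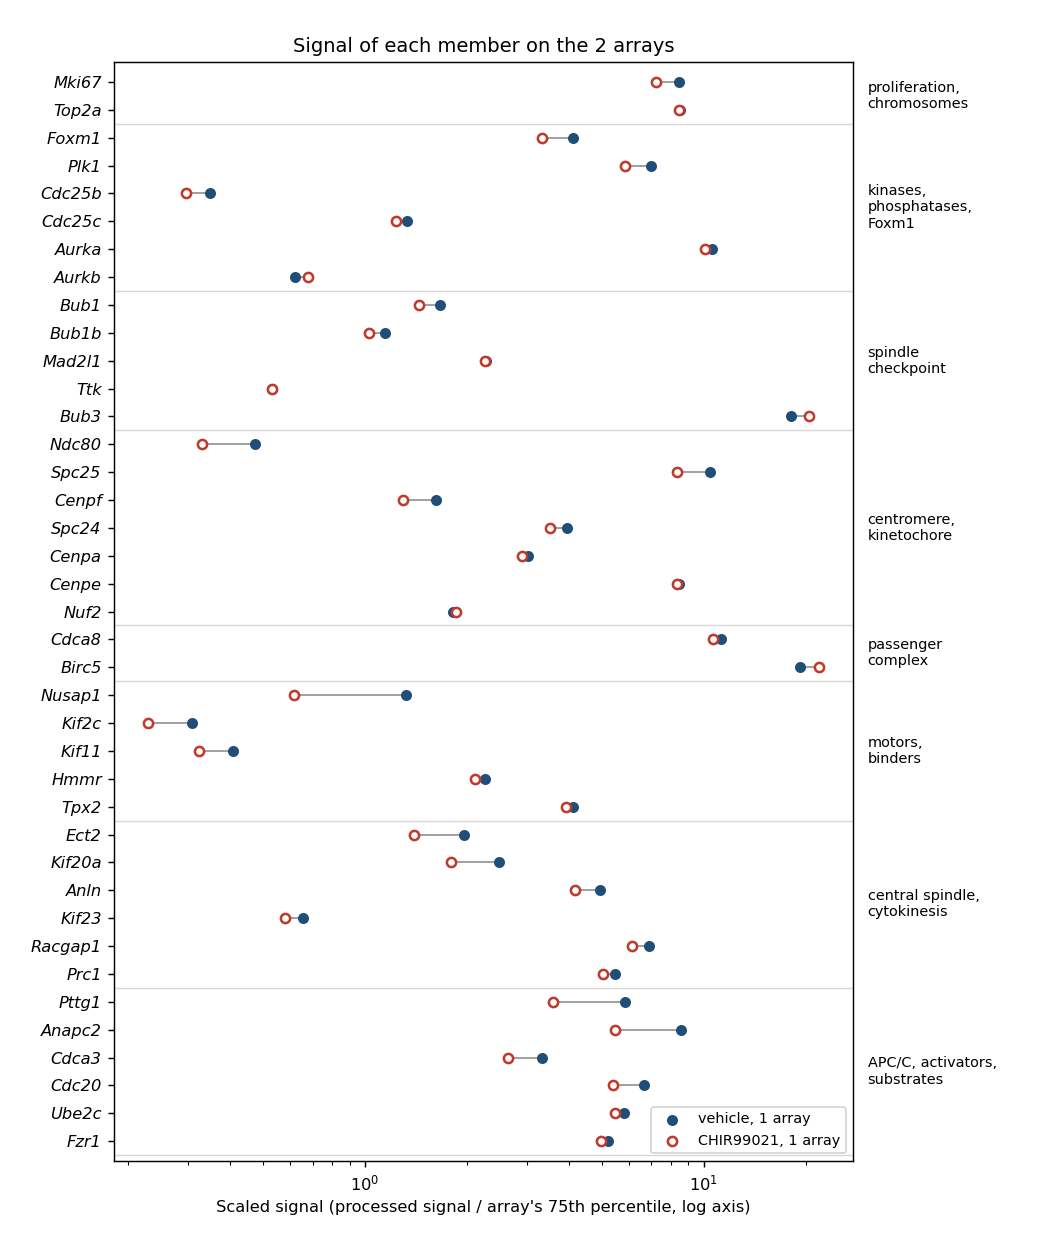
Scaled signal of the highest-signal probe of each of the 39 members on the vehicle array (filled) and the CHIR99021 array (open), on a log axis, by role and within a role from the lowest ratio; positions of different genes are not comparable, since each probe has its own brightness. The longest lines belong to Nusap1, Pttg1, Anapc2 and Ndc80, and for Aurkb, Bub3 and Birc5 the open point lies to the right.

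Among the proliferation readouts, Mki67, which encodes the protein stained as Ki-67 antigen, and Top2a, the topoisomerase that untangles sister chromosomes, differed. Mki67 had a signal of 8.45 under vehicle and 7.23 under CHIR99021, a ratio of 0.856 at a Z-score of -0.86. The difference was 7.32 times the SD between spots of that brightness. Top2a had signals of 8.52 and 8.45, a ratio of 0.991 at a Z-score of -0.24, and its other 3 probes were at 1.08, 1.08 and 1.31, the last on a dim and uneven spot (pixel SD 0.305 of the mean under CHIR99021). The readouts therefore did not share a direction at all their probes, and neither was near the criteria.

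Foxm1, the transcription factor of the late cell cycle genes, had signals of 4.10 and 3.33, a ratio of 0.812 and a Z-score of -1.04. A second Foxm1 probe was well above background under vehicle only, and was at least 1.502-fold lower under CHIR99021. Plk1, a kinase of mitotic entry and centrosome maturation, had signals of 6.99 and 5.85, a ratio of 0.836 and a Z-score of -1.08. The phosphatases that activate Cdk1 were at 0.849 (Cdc25b) and 0.927 (Cdc25c), both within 2 spot SDs of 1. Aurka, the spindle pole kinase, had signals of 10.6 and 10.1, a ratio of 0.954 and a Z-score of -0.50. Aurkb, the kinase of the chromosomal passenger complex, had signals of 0.620 and 0.680, a ratio of 1.097 and a Z-score of 0.36, within the error of a spot that dim, and its second probe was at 0.975. Of the 6 genes in the group 5 were below 1, with a median log2 ratio of -0.17. Aurkb was the gene of this group above 1.

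The spindle checkpoint had a median of -0.01 on the log2 scale with 3 of 5 genes below 1. Bub1 and Bub1b, the checkpoint kinase and its relative that restrains Cdc20, were at 0.863 and 0.897. Mad2l1, which binds Cdc20 while kinetochores are unattached, was at 0.992 and at 0.995 at its second probe. Ttk, the kinase that starts the checkpoint signal, had signals of 0.531 and 0.532, a ratio of 1.00 and a Z-score of 0.07. Bub3, the adaptor that brings Bub1 to the kinetochore, had signals of 18.1 and 20.5, a ratio of 1.13 and a Z-score of 0.32. The passenger complex partners showed the same mixture. Birc5 (survivin) had signals of 19.2 and 21.9, a ratio of 1.14 and a Z-score of 0.35, and a second probe at 1.07. Cdca8 (borealin) was at 0.9503 and 1.03 at 2 probes measured on both arrays. Its remaining probe, with signals of 0.0271 and 0.167, was not well above background under vehicle and at least 3.44-fold higher under CHIR99021. That spot was uneven, with a pixel SD of 0.312 of its mean against a limit of 0.261 for 99% of spots in the earlier rows, and the brighter probes of the gene did not follow it.

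The subunits of the Ndc80 complex, the kinetochore's coupling to microtubules, were measured completely and did not have equal ratios. Ndc80 had signals of 0.472 and 0.3303, a ratio of 0.699 and a Z-score of -1.04. Spc25 was at 0.801 and 0.836 at its 2 probes, and Spc24 at 0.889. Nuf2 had signals of 1.82 and 1.86, a ratio of 1.021 and a Z-score of 0.03, with its second probe at 1.05. Ndc80 has 1 probe, whose brightness lies where the spot SD is 0.15. The second Nuf2 probe lies in the same range of brightness and on an uneven spot (pixel SD 0.268 of the mean under vehicle), and the brighter Nuf2 probe lay 0.218 spot SDs from 1. Cenpf, a large protein of the outer kinetochore, was at 0.801 and at 0.655 at a dimmer probe. Cenpa, the histone H3 variant of centromeres, was at 0.960, and Cenpe, a kinetochore motor, at 0.990. The only probes of Spc24 and Cenpe had neighbouring spots at median log2 ratios of -0.48 and 0.85, with 4 and 6 on/off spots close by, and the part of their place was not tested. The group had 6 of 7 genes below 1 and a median log2 ratio of -0.17.

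All 5 motors and binders were below 1, with a median log2 ratio of -0.34. Nusap1, which bundles spindle microtubules near chromosomes, had the lowest ratio of all members. Its signals were 1.32 and 0.616, a ratio of 0.468 at a Z-score of -3.09, at its only probe (chr2:119475072-119475131 of build mm9, plus strand). The spots next to it had a median log2 ratio of 0.80, with 3 spots within 3 rows and columns that were bright on 1 array and dark on the other, and the part of the spot's place was not tested. Neighbouring spots include those at background level, and their median was positive at most members below 1. Kif2c, a kinesin that takes microtubules apart, was at 0.741 on an uneven spot, whose neighbours had a median log2 ratio of -0.81 with 4 on/off spots close by, and the part of its place was not tested either. Kif11, the kinesin that pushes spindle poles apart, was at 0.791. Hmmr, a spindle assembly factor, was at 0.935 at its brightest probe and at 0.688 and 0.727 at dimmer ones. Tpx2, the activator of Aurka on the spindle, was at 0.952. Without Nusap1 the median log2 ratio of the members was -0.17 as before.

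All 6 genes of the central spindle and cytokinesis were below 1 as well at their brightest probes, with a median log2 ratio of -0.21, whereas the mean over probes put Kif23 at 1.83. Ect2, the exchange factor that activates RhoA at the furrow, had signals of 1.96 and 1.39, a ratio of 0.710 and a Z-score of -1.35, and its second probe was at 0.729. Kif20a, a kinesin of the central spindle, was at 0.724. Anln, the scaffold of the contractile ring, was at 0.847. The centralspindlin partners Kif23 and Racgap1 were at 0.885 and 0.892. Prc1, which crosslinks the midzone microtubules, was at 0.922, with other probes at 0.941 and 0.966. Kif23 was below 1 at all 3 probes measured on both arrays (0.841 to 0.885), whereas its remaining probe had signals of 0.0104 and 0.178. It was not well above background under vehicle and at least 3.67-fold higher under CHIR99021. Its pixel SD was 0.269 of the mean, above the limit, with 3 on/off spots close by, and it was the single Kif23 probe above 1.

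The APC/C group held both other called members, and all 6 of its genes were below 1 with a median log2 ratio of -0.32. Pttg1, securin, which keeps separase inactive until anaphase, had signals of 5.83 and 3.60, a ratio of 0.617 and a Z-score of -2.12, at chr11:43233801-43233860 of mm9 on the minus strand. Its second probe was well above background under vehicle only and at least 1.92-fold lower. Anapc2, the cullin subunit of the APC/C core, had signals of 8.56 and 5.47, a ratio of 0.639 and a Z-score of -2.28, and a second, dimmer probe was at 0.684. Pttg1 and Anapc2 are also in the list of lowered genes that the study drew from these same arrays, which is no independent evidence of their direction. Without both, the median log2 ratio of the other 37 members was -0.16. Cdc20, the mitotic activator of the APC/C, had signals of 6.68 and 5.39, a ratio of 0.807 and a Z-score of -1.17, with its second probe at 0.732. Cdca3, which is degraded through the APC/C, was at 0.795. Ube2c, the ubiquitin-conjugating enzyme of the APC/C, was at 0.94, and Fzr1, its activator after anaphase, at 0.952. Ube2c and Fzr1 lay within 2 spot SDs of 1, and the other 4 genes, of which 2 were called, lay beyond.

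**Figure D4:**
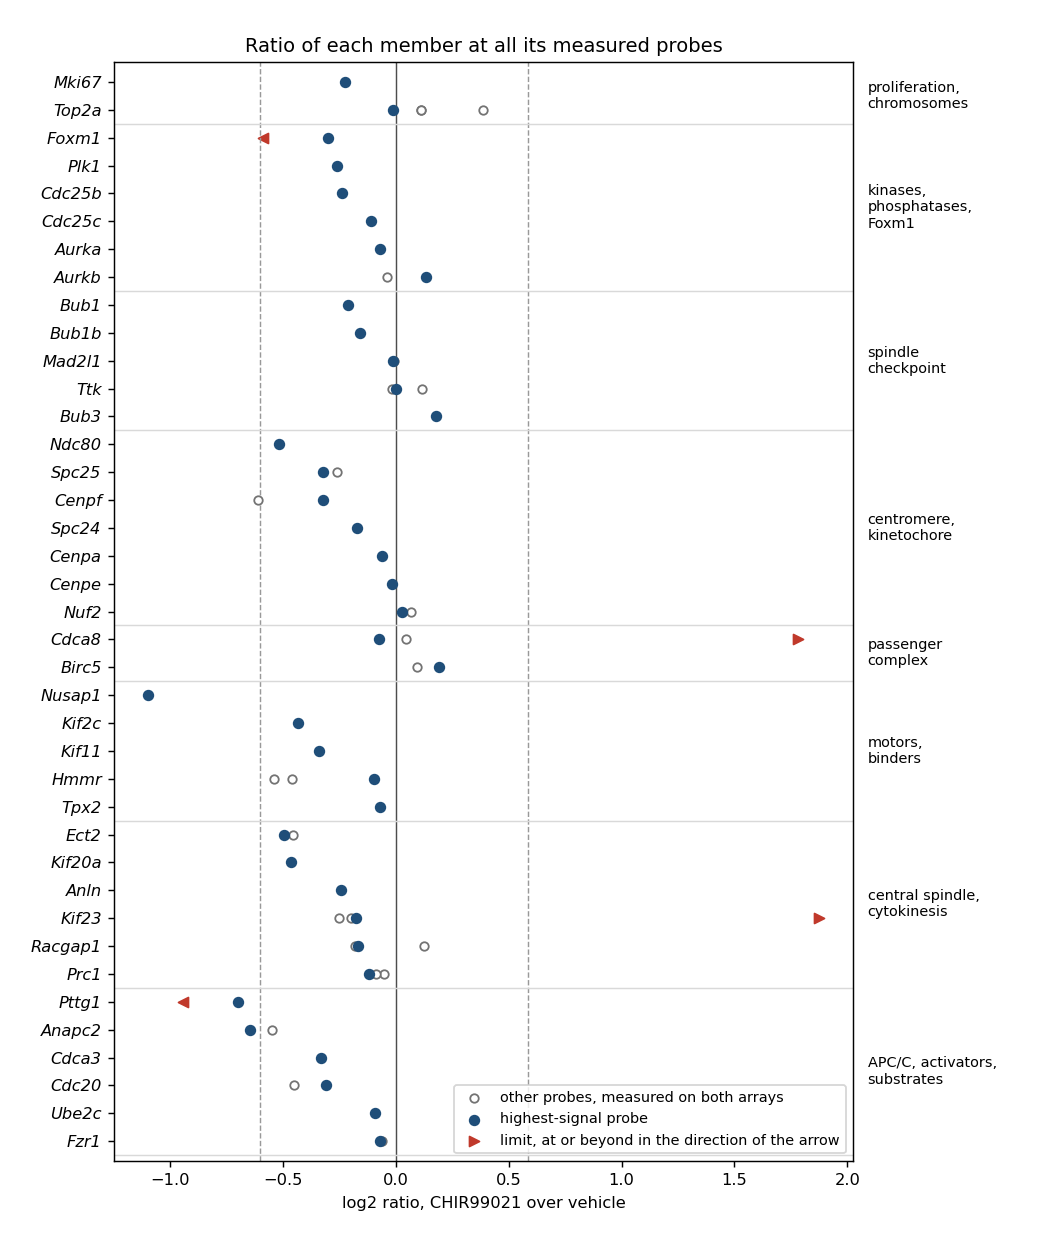
The log2 ratio of CHIR99021 over vehicle at every member probe measured on both arrays, with the highest-signal probe filled and others open, by role; arrows are limits for 4 probes well above background on 1 array, and dashed lines mark ratios of 0.66 and 1.5. The points lie mostly left of 0, Nusap1 lies farthest left, and the arrows to the right belong to Cdca8 and Kif23.

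Probes of the same gene gave a second reading within each array. Of 17 members with more than 1 probe measured on both arrays, 10 had all probes below 1, 5 had probes on both sides and 2 (Birc5 and Nuf2) had all above. The median SD between probes of a member was 0.07 on the log2 scale, and 0.11 over 5688 genes with several probes. Another 16 members, Nusap1, Ndc80, Plk1, Mki67 and Aurka among them, have a single probe on the array. The probes were 60 bases long, and the ends of 11 of the 76 lie more than 60 bases apart in mm9. For a Foxm1 probe the ends span 62 bases, and for the other 10 they span at least 150, as where a probe crosses a splice junction, although the files do not say which exons. Of these 10, 4 are shown as a sole probe or as one to set beside a brighter probe of the same gene: the second Anapc2 probe, the sole Ndc80 probe, the lowest Hmmr probe and the Racgap1 probe that lay above 1.
Anapc2 probe A_52_P237414: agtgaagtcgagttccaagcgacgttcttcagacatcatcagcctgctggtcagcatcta
Ndc80 probe A_51_P191649: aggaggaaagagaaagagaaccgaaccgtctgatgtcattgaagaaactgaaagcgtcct
Hmmr probe A_55_P2738132: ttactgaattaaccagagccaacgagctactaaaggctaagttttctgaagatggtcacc
Racgap1 probe A_52_P298465: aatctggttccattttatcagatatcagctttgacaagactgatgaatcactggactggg
They lie at chr2:25134024-25134749, chr17:71860793-71861755, chr11:40535400-40536940 and chr15:99464720-99466615 of mm9, and had ratios of 0.684, 0.699, 0.688 and 1.09. The Anapc2 probe has 6 on/off spots within 3 rows and columns, and the brighter Anapc2 probe, at chr2:25140968-25141027, has 0. The brightest Racgap1 probe was at 0.892 and another at 0.882, so the probe above 1 was the exception for its gene.

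Other genes of mitosis had a median closer to that of all genes. Of 109 such genes in 8 lists, 108 had a probe above background (Aurkc did not), and 60 of these were below 1 (55.6%), with a median log2 ratio of -0.03. The lists and the members were chosen with earlier results of these data known, so the contrast between them is not independent of that choice. A single gene, Cdkn3, a phosphatase that acts on Cdk1, met both criteria, with unscaled intensities of 1227 and 692 and a ratio of 0.585, and 0 were higher. The lowest ratios were those of the pocket protein gene Rbl2 (0.418), Cdkn3 and the centromere factor gene Oip5 (0.589). The highest were those of Troap (2.22), Mastl (1.79) and Tfdp1 (1.479), and Rbl2, Troap and Mastl had intensities under 100 on the vehicle array. Other spindle and cytokinesis genes were lower most often, 15 of 18 with a median log2 ratio of -0.10, as were 6 of 9 other kinesins with a median of -0.13. The cyclin B and Cdk1 genes were on both sides of 1, 5 of 10 below with a median of -0.01, Ccnb1 at 0.957 and Cdk1 at 1.09. In the rest of the APC/C 7 of 15 genes were below 1 with a median of 0.02, so that the low ratio of Anapc2 was not found across the complex. The medians were 0.00 for 27 kinetochore and centromere genes, 0.00 for 12 condensin, cohesin and separase genes, 0.04 for 11 genes of the DREAM and MuvB complexes, which bind CHR letters, and 0.12 for 6 other mitotic kinases.

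**Figure D5:**
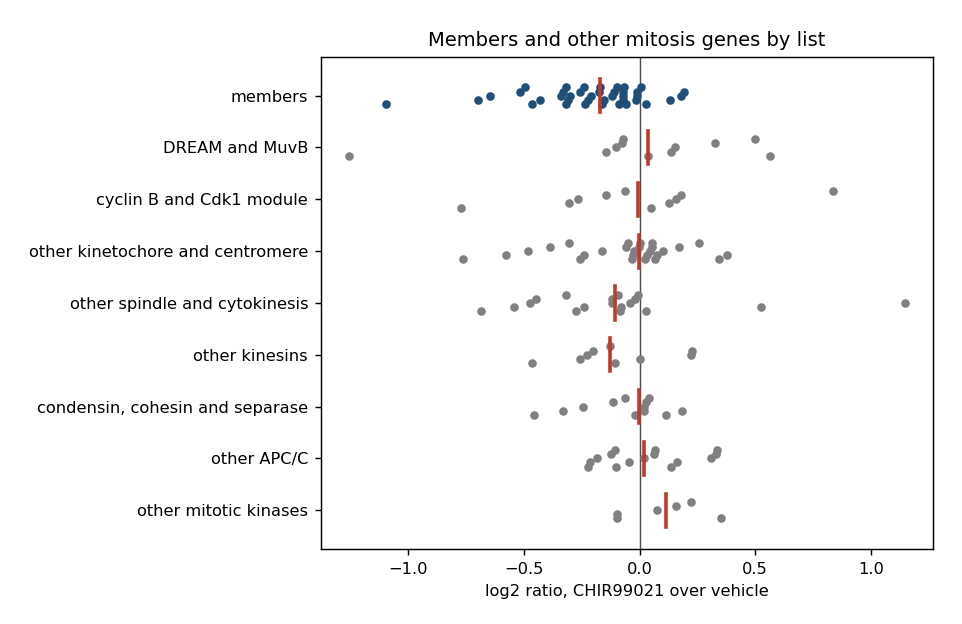
The log2 ratio of CHIR99021 over vehicle for the 39 members and for 108 other mitosis genes in 8 lists, 1 point a gene, with the median of each list as a vertical bar; the small vertical offsets within a row carry no value. The bar of the members (-0.17) lies left of all others, nearest to those of other kinesins and of other spindle and cytokinesis genes.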

How the data were processed

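Total RNA of mDE6 cells was labelled with Cy3, and the authors deposited the spot intensity of each array as quantified with Feature Extraction (10.7.1.1 per the file headers, 9.5.1.1 per the labels), background-subtracted and not normalized between arrays, together with a normalized intensity table. The gProcessedSignal intensities were divided by each array's 75th percentile, spots of a probe were averaged, control spots and outlier spots were left out, and the 28066 probes that exceeded background on either array were kept (Python 3.11.15, numpy 2.4.6, pandas 2.3.3, matplotlib 3.10.9). A gene was read at its probe with the highest mean signal. A probe above background on 1 array has only a limit, set against the lowest signal well above background. No p-value was computed, since each condition has 1 array. The calls were tested on simulated data. Alternatives were other scalings, the normalized table, normexp in limma 3.58.1 under R 4.3.3 (offset 50), other filters, a floor, other Z-scores, the mean over probes, and the arrays without uneven spots or the later rows. Full values were given for members meeting both criteria, the 5 lowest and 5 highest ratios, 7 usual proliferation readouts, and members whose probes disagree by over 1.5 times around 1. Ccnb1 and Cdk1 were named after their values were seen. Members and lists were chosen with earlier results of these data known. Protein sequences were not analysed here.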

Additional observations from a re-analysis of the deposited data

How the results depend on the processing

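No paired analysis was possible because there is 1 array a condition. The median log2 ratio of the member genes stayed below 0 under every alternative run. It was -0.22 under quantile normalization, -0.14 under median scaling, -0.22 with no scaling, -0.22 with the percentile taken over probes that passed background on both and -0.22 in the authors' normalized table. Under the others it moved by no more than 0.03, the median spot SD over all repeated probes. That SD belongs to single spots and is not the spread of a median over genes. The median of all genes moved too: the members' median minus that of all genes was -0.20 under the main, median and percentile scalings and with no scaling, and ranged elsewhere from -0.35 with no filter on dim probes to -0.17 with normexp. Member probes lower by both criteria numbered 3 except in the earlier rows alone (1, Anapc2) and with a Z-score from 1 mean and SD (0). Member probes higher by both criteria numbered 0 except with normexp (2), no filter on dim probes (1), a floor (2), a median and MAD Z-score (1) and 1 mean and SD (2), all of them the dim Cdca8 and Kif23 probes. Member probes at a ratio of at most 0.66 numbered 3 with normexp, 8 with no filter and 3 in the earlier rows, and 4 to 7 under the other alternatives. Those at a ratio of at least 1.5 numbered 0 with the filter on both arrays, without uneven spots and in the earlier rows. Of the 39 genes, 29 stayed below 1 and 3 above 1 under every alternative run, and 7 crossed it. Cenpe, Nuf2 and Ttk did so only under scalings that move every gene by a constant, Mad2l1 also with normexp (1.00), Cdca8 and Kif23 only with the mean over probes, which takes in their dim uneven spots, and Top2a under a constant, with the mean over probes and in the earlier rows. The planned search of protein sequences for degradation motifs was not run. With 1 array a condition, precision is limited by the number of arrays, and spots under 300 intensity units have a spot SD of 0.15 or more.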
